A study of Mus musculus with 9 samples.

Results

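Mitochondrial ribosomal protein genes were followed across CD8+ T cells that had been activated with or without coenzyme A (CoA). The members were the protein-coding genes whose mouse symbol begins with Mrpl or Mrps followed by a number. They came to 78 of the 53679 gene IDs counted, and 5 pseudogenes with such symbols were left out. Total RNA of C57BL/6 CD8+ T cells was sequenced after 3 days of activation, in 3 groups of 3 libraries. Tc22 cells are CD8+ T cells that produce interleukin-22, and Tc0 cells are their unpolarised counterpart. The groups were untreated Tc0 (agent none in the labels, while the protocol names a vehicle), Tc0 given CoA, and untreated Tc22. Each of 3 mice (numbered 715, 725 and 728) gave 1 library to every group, so comparisons were made within mice. The age of the mice, the CoA dose and the way either cell type was cultured were not given in the sources used here, and Tc22 cells with CoA were not analysed here.

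Mitochondria keep a ribosome of their own, which translates the few messenger RNAs of the mitochondrial genome. All of those messengers encode subunits of the oxidative phosphorylation complexes. Its RNA comes from the mitochondrial genome, but its proteins are encoded in the nucleus, made in the cytosol and imported. The large subunit (Mrpl genes, with Mrps18a and Mrps30) forms peptide bonds, and the small subunit (most Mrps genes) reads the messenger. Some of the proteins have bacterial counterparts and the rest were gained by the mitochondrial ribosome. Activated T cells build up mitochondria as they grow and divide. CoA, made from pantothenate (vitamin B5), carries acyl groups into the tricarboxylic acid cycle.

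Gene counts summed to between 21841034 and 36254631 per library. All 78 members passed the filter on low counts, and the lowest count of a member in any library was 125. The 8 CD8 T cell markers (among them Cd3e, Cd8a and Lck) were all found, with summed levels of 1752 to 2233 CPM (a gene's count scaled by the TMM-adjusted size of its library) in Tc0 with CoA, 2143 to 2794 in Tc0 and 2119 to 2661 in Tc22. The 3 summed ranges overlapped, but single markers moved with the groups. With CoA 4 of the 8 were lower than in Tc0 by edgeR's test (Cd2, Cd3d, Cd3e and Cd3g) and 0 were higher, and 5 were higher in Tc22 than with CoA (these 4 and Zap70). Cd3d, a subunit of the T cell receptor complex, lay at 126.7 to 183.5 CPM with CoA, under the 239.5 to 318.4 in Tc0 and the 245.1 to 329.01 in Tc22. Summed dendritic cell markers lay at 5.46 to 9.37 CPM with CoA, above the 3.73 to 5.005 in Tc0 and overlapping the 4.36 to 5.85 in Tc22. Most of that sum was Zbtb46, which was called higher with CoA than in Tc0 and lower in Tc22 than with CoA. Siglech was at 0 in all 9 libraries. Summed macrophage and monocyte markers were 4.97 to 14.0, 4.50 to 6.53 and 6.19 to 7.13 CPM in the same order, and 2 of their 5 genes (Cd14 and Lyz2) were higher with CoA than in Tc0. In Tc22 against Tc0 with CoA, 3 of those 5 were lower (Csf1r, Cd14 and Lyz2) and 1 was higher (Cd68). The B cell, CD4 T cell, natural killer, granulocyte and erythroid sums were at most 15.7 CPM in any library. Among their genes, Cd4 was called higher in Tc22 than in Tc0, and the natural killer marker Klrb1c higher in Tc22 than with CoA. The part of these marker shifts in the results was not tested. The Tc0 library of mouse 728 differed most in its share of replication-dependent histone genes. They took 0.667% of its counts, against 0.140% to 0.491% in the other 8 libraries. Mouse 728 had the highest share in the other groups too. It was 0.364% with CoA (0.161% and 0.177% in mice 715 and 725) and 0.491% in Tc22 (0.251% and 0.406%). Calls that changed when the Tc0 library of mouse 728 was left out are given with each comparison.

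Promoters are shown for 4 members, chosen so that each of 4 motifs known from promoters of nuclear-encoded mitochondrial genes or of growth genes can be seen in place. They are RefSeq sequences (GRCm38.p6) from 250 bases before to 50 bases after the annotated start, read 5′ to 3′ along the gene. Capitals mark a match to the motif of NRF1 (GCGC, then any base, then TGCGC), of ETS factors such as GABP (CCGGAAG), of YY1 (AAGATGGCG) or to the E-box bound by MYC and MAX (CACGTG), searched on both strands. Mrpl45 (chr11:97315466-97315765, plus strand) holds 3 NRF1 motifs, and Mrpl36 (chr13:73330759-73331058, plus strand) an E-box and a YY1 motif. Mrps18b (chr17:35916391-35916690, minus strand) holds 1 ETS motif. Each of these was higher with CoA. Mrpl58 (chr11:115403502-115403801, plus strand) holds 2 ETS motifs and did not pass the test in any comparison.
Mrpl45: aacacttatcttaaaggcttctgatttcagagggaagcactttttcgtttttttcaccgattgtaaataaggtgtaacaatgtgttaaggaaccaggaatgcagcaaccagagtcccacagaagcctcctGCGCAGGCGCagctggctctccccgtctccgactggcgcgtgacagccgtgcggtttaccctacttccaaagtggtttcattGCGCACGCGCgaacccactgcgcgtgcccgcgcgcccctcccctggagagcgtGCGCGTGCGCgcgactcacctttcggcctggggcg
Mrpl36: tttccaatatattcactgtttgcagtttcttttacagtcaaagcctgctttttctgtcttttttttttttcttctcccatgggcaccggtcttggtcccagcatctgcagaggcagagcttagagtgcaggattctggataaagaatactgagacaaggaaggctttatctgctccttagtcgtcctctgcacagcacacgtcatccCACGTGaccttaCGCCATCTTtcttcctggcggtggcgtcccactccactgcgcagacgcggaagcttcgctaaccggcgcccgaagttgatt
Mrps18b: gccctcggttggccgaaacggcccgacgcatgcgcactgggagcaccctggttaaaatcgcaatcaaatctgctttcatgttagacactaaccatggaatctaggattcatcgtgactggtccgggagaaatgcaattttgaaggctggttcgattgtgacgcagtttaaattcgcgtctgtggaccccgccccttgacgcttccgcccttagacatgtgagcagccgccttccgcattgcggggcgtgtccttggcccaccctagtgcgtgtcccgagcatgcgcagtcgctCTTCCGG
Mrpl58: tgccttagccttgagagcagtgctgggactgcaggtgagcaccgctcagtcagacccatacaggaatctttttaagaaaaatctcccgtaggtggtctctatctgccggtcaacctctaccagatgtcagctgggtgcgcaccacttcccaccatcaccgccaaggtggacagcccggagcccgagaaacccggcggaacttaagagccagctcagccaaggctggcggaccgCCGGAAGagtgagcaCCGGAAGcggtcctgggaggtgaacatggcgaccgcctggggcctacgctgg

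A promoter was found for 69 of the 78 members. The start in RefSeq lay within 100 bases of the start of the principal transcript in GENCODE M21 for 56 of these. For Mrpl20, the member with the largest change, the starts lay 643 bases apart, so its window is not shown. The NRF1 motif was present in 13 members' promoters (18.8%), against 4.76% of the promoters of all 27025 genes. The ETS motif was present in 25 (36.2%, against 9.21%), the YY1 motif in 8 (11.6%, against 1.51%) and the E-box in 5 (7.25%, against 7.20%). Among 9523 protein-coding genes that were tested here, the shares were 11.03% for NRF1, 19.6% for ETS, 3.42% for YY1 and 10.2% for the E-box. At least 1 of the NRF1, ETS and YY1 motifs was found in 40 members (58.0%), against 30.6% of those 9523 genes. Among the 25 members with a promoter that were higher with CoA, 12 (48.0%) held one, and among the other 44 members 28 (63.6%) did. These matches describe letters in a window, and matches can overlap, as 2 NRF1 matches in Mrps26 did.

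Members differed in level by 21.8-fold when CPM was divided by the length of the principal transcript in kilobases. Ordered by mean over the 9 libraries, the 5 highest levels per kilobase were those of Mrpl42 (114.9), Mrpl33 (113.6), Mrpl18 (112.1), Mrpl30 (85.4) and Mrps33 (66.5). Mrpl18 belongs to the central protuberance of the large subunit, and Mrpl33 and Mrpl30 have bacterial counterparts. Mrpl18 (mean 136.6 CPM) overlaps Tcp1 on the opposite strand (mean 1314 CPM), whose reads could be shared if strand was not used in counting. The 5 lowest were Mrpl17 (5.27), Mrps26 (5.81), Mrps25 (8.39), Mrpl57 (8.97) and Mrpl11 (9.53). Before division by length their means were 38.4, 24.9, 51.0, 25.8 and 29.0 CPM, and the lowest mean of any member was that of Mrpl55 (9.30 CPM). The order per kilobase thus depends on the transcript chosen for each gene. The principal transcripts of Mrpl17, Mrps26 and Mrps25 have 7300, 4278 and 6073 bases, and those of Mrpl42 and Mrpl33 666 and 478. The group means of Mrpl42 per kilobase were 144.3 with CoA, 105.6 in Tc0 and 94.80 in Tc22, and those of Mrpl33 were 119.0, 104.4 and 117.5.

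The first comparison, Tc0 with CoA against Tc0, asked what CoA does to the transcripts of these cells. Together the 78 members reached 3556, 3882 and 3825 CPM with CoA in mice 715, 725 and 728. In Tc0 they reached 3269, 2938 and 3006 CPM, and in Tc22 3129, 3052 and 3009 CPM. The 3 libraries with CoA were all higher than the other 6, whereas Tc0 and Tc22 overlapped. The means were 3754 ± 174 CPM with CoA, 3071 ± 175 in Tc0 and 3063 ± 60.8 in Tc22 (SD, n = 3 each). Within mice the sum was higher with CoA by 8.76%, 32.1% and 27.3% in mice 715, 725 and 728. In bulk RNA, a change in the number of cells of a type and a change in RNA per cell cannot be told apart. The sums of both subunits were higher with CoA in every mouse. The small subunit's sum was higher with CoA by 10.3%, 35.8% and 28.8% and that of the large subunit by 8.29%, 31.0% and 26.5%. Tc22 against Tc0 gave -4.30%, 3.88% and 0.0877% for all members.

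**Figure D1:**
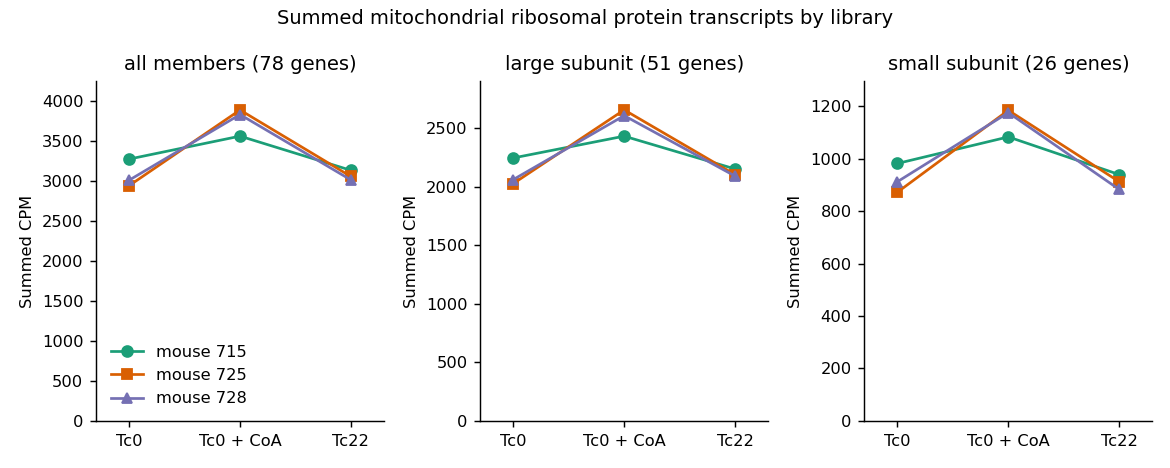
Summed CPM of all 78 members, of the 51 large-subunit and of the 26 small-subunit genes (y axes from 0) in Tc0, Tc0 with CoA and Tc22, with a line for each mouse. In all 3 panels every mouse peaks with CoA, and mouse 715 has the smallest rise (8.76% for all members).

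Gene by gene, 28 of the 78 members were higher with CoA and 0 were lower, by edgeR's quasi-likelihood test with Benjamini-Hochberg adjustment over all genes (adjusted p under 0.05, mouse as a block). Over all 15348 genes tested, 12.5% were higher and 12% lower (24.5% in either direction). At an unadjusted p under 0.05 the members gave 42 higher and 0 lower (19.3% and 18.8% of all genes), and DESeq2 gave 33 and 0 (12% and 10.5% of the genes it tested). The median log2 fold change of the members was 0.29, against -0.01 for all genes, and 71 of 78 lay above 0. In mice 715, 725 and 728 the median log2 ratios were 0.13, 0.47 and 0.36. For 34 members all 3 libraries with CoA lay above all 3 of Tc0 and for 0 members below, where 14.2% and 13.6% of all genes did so. Mrpl20, Mrpl38, Mrps6 and Mrps18b were called in all 16 settings tried. The count of higher members rested on single libraries. It was 4 without the Tc0 library of mouse 725. Without the CoA library of mouse 725 or 728 it was 5 or 6, and without the mouse block 11. Calls over all genes fell too. In that order they were 1160, 1325, 1485 and 1462 in either direction, beside 3763 with all libraries and the block. The members' median lay between 0.24 and 0.42 over the fits that left out a library. Without the Tc0 library of mouse 728 the count of higher members was 27 (13.4% of all genes were then higher and 11.9% lower). Mrpl3, Mrpl19, Mrpl50 and Mrps22 lost their calls in that fit (adjusted p from 0.0694 to 0.0970), and Mrpl2, Mrpl4 and Mrps11 gained one (0.0246 to 0.0279).

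**Figure D2:**
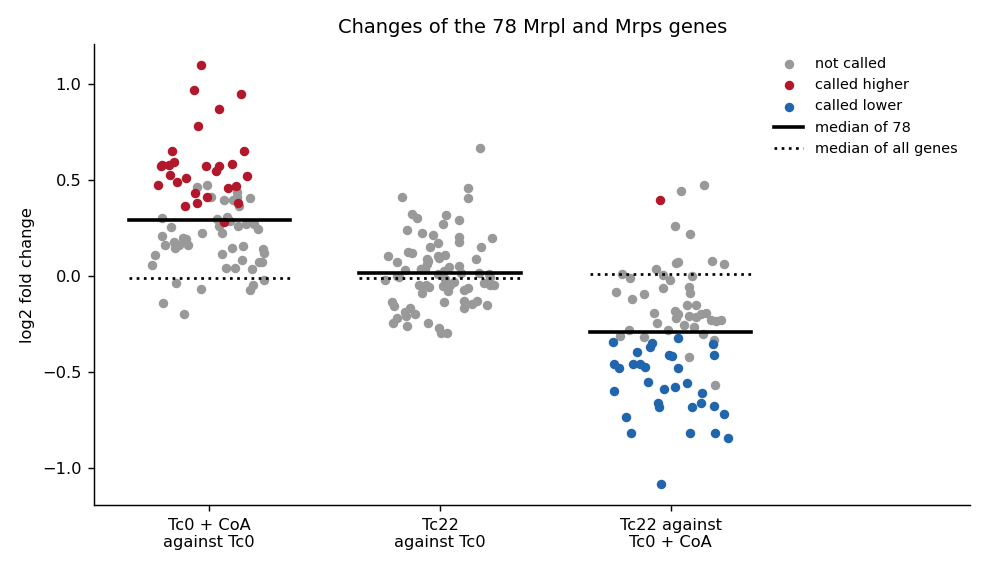
Log2 fold change (y axis) of each of the 78 members in the 3 comparisons; points are genes, red and blue mark adjusted p under 0.05, solid bars the members' median and dotted bars the median of all genes tested. With CoA 28 points are red and the members' median lies at 0.29; in Tc22 against Tc0 no point is coloured; in Tc22 against Tc0 with CoA 33 points are blue and 1 is red.

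Of the 51 large-subunit members, 20 were higher with CoA and 0 were lower (median log2 fold change 0.30). Mrpl20, the counterpart of a bacterial protein that acts early in assembly of the large subunit, had the largest change of all members. Its levels were 51.3, 76.3 and 64.00 CPM with CoA in mice 715, 725 and 728, 27.4, 30.4 and 30.5 in Tc0, and 26.6, 33.2 and 29.9 in Tc22. Every library with CoA lay above all 6 others, and Tc22 overlapped Tc0. Mrpl20 rose 2.14-fold, by 1.10 ± 0.12 (SE; adjusted p = 0.000887) on the log2 scale. The gene lies on chromosome 4 (155802878 to 155809975, plus strand, GRCm38). Mrpl38, which the mitochondrial ribosome gained and which sits at the central protuberance, reached 18.1, 19.8 and 26.5 CPM with CoA against 10.8, 7.83 and 15.1 in Tc0. Its groups did not overlap, and it rose by 0.95 ± 0.18 (SE; adjusted p = 0.00696) on the log2 scale. Mrpl12, part of the flexible stalk that recruits translation factors, and reported to bind the mitochondrial RNA polymerase, reached 25.8, 34.8 and 35.3 CPM with CoA and 17.1, 13.7 and 22.7 in Tc0. All 3 CoA libraries were above those of Tc0, and it rose by 0.87 ± 0.20 (SE; adjusted p = 0.0138), a call made in 12 of the 16 analysis settings tried. Mrpl11, at the base of that stalk, reached 33.3, 40.2 and 39.8 CPM with CoA against 24.9, 21.7 and 25.3 in Tc0. Its groups were apart too, and it rose by 0.65 ± 0.13 (SE; adjusted p = 0.00749).

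Mrpl36, a small protein with a bacterial counterpart, reached 48.02, 51.6 and 45.1 CPM with CoA and 39.2, 33.5 and 25.96 in Tc0, again without overlap, and rose by 0.57 ± 0.12 (SE; adjusted p = 0.0111). It overlaps Ndufs6, a complex I subunit on the opposite strand that was also higher with CoA (log2 fold change 0.47, adjusted p = 0.0423). Mrpl1, of the stalk by which transfer RNA leaves, was at 112.1, 131.4 and 93.4 CPM with CoA and at 95.1, 80.4 and 53.2 in Tc0. These groups overlapped by the Tc0 library of mouse 715, and within mice Mrpl1 rose by 0.58 ± 0.14 (SE; adjusted p = 0.0150). Mrpl3, a core protein near the peptidyl transferase centre, rose by 0.36 ± 0.11 (SE; adjusted p = 0.0396), a call made in 7 of 16 settings and lost without the mouse block (adjusted p = 0.140). Mrpl2, also of that region, was 0.42 higher without passing the test (adjusted p = 0.0522), and was called in 3 of 16 settings, DESeq2 among them. Mrpl45, which lies at the exit tunnel facing the inner membrane, was the called member with the smallest change. It reached 103.9, 100.0 and 112.9 CPM with CoA against 88.9, 79.3 and 92.4 in Tc0, and rose by 0.28 ± 0.09 (SE; adjusted p = 0.0490), a call made in 5 of 16 settings. Mrps18a, one of the paralogues of bacterial S18 and the one that joins the large subunit, rose by 0.55 ± 0.14 (SE; adjusted p = 0.0187). Its call was made in 11 of 16 settings, those of Mrpl1 and Mrpl36 in 12 each and that of Mrpl11 in 15. Without the mouse block the adjusted p was 0.114 for Mrps18a, 0.115 for Mrpl1 and 0.0769 for Mrpl36. The other large-subunit members that rose were Mrpl15, Mrpl16, Mrpl17, Mrpl19, Mrpl28, Mrpl37, Mrpl40, Mrpl42, Mrpl46, Mrpl49 and Mrpl50, with log2 fold changes from 0.38 to 0.58.

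Of the 26 small-subunit members, 8 were higher with CoA and 0 were lower. All 26 log2 fold changes lay above 0 (median 0.28). Mrps6, of the platform, reached 31.3, 37.9 and 27.9 CPM with CoA against 20.2, 15.1 and 14.8 in Tc0. The groups were apart, and Mrps6 rose 1.96-fold, by 0.97 ± 0.17 (SE; adjusted p = 0.00509) on the log2 scale. Its locus on chromosome 16 (92058270 to 92112227, plus strand) also holds Slc5a3 on the same strand, whose reads could be shared. Slc5a3 was 0.40 higher on the log2 scale without passing the test (adjusted p = 0.126). Mrps18b, another S18 paralogue, reached 57.7, 75.8 and 63.03 CPM with CoA and 41.4, 34.6 and 37.99 in Tc0. It rose 1.72-fold without overlap, by 0.78 ± 0.13 (SE; adjusted p = 0.00501). The paralogue Mrps18c was at 45.7, 45.1 and 44.5 CPM with CoA and at 49.04, 45.7 and 32.02 in Tc0, inside the Tc0 range, a difference of 0.11 ± 0.13 (SE; adjusted p = 0.561). Mrps2 rose by 0.60 ± 0.12 (SE; adjusted p = 0.00813), and so did Mrps7, of the head, by 0.57 ± 0.13 (SE; adjusted p = 0.0120). Mrps12, of the decoding centre, went from 8.22, 8.77 and 10.1 CPM in Tc0 to 12.6, 13.2 and 14.8 with CoA. That was a rise in all 3 mice with groups apart, of 0.58 ± 0.15 (SE; adjusted p = 0.0206). Mrps5, Mrps21 and Mrps22 completed the 8, at 0.47, 0.65 and 0.38. The calls of Mrps5, Mrps7, Mrps12 and Mrps21 were made in 12 of 16 settings each. That of Mrps2 was made in 14 and that of Mrps22 (adjusted p = 0.0405) in 6. Without the mouse block the adjusted p was 0.0509 for Mrps7, 0.0809 for Mrps12, 0.155 for Mrps21 and 0.243 for Mrps22. Mrps22 and Mrps34 belong to the part gained by the mitochondrial ribosome, and Mrps34 had 17.2, 20.3 and 21.8 CPM with CoA against 16.6, 13.9 and 24.8 in Tc0, with no call (adjusted p = 0.630).

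**Figure D3:**
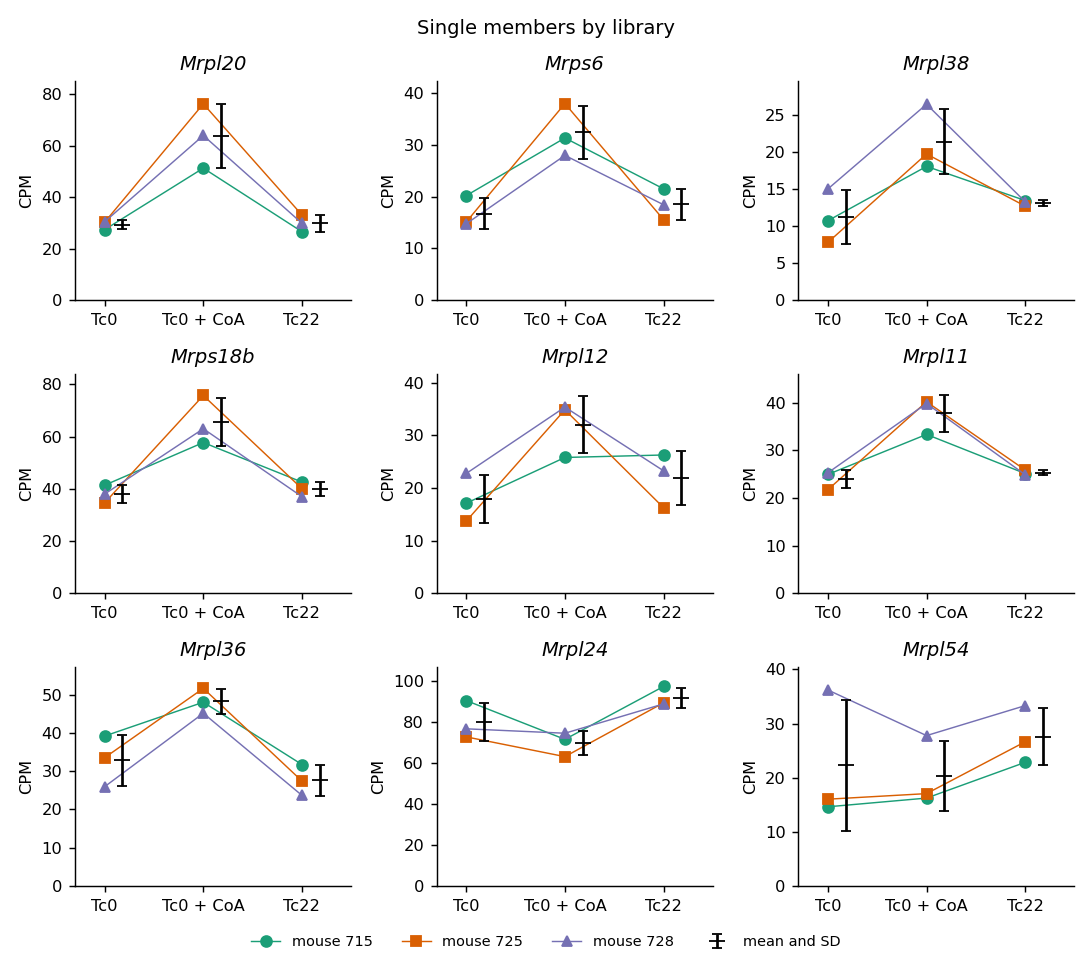
CPM (y axes from 0) of 9 members in each library; lines join a mouse, and black marks with bars give the mean and SD of 3 libraries. Mrpl20, Mrps6, Mrpl38, Mrps18b, Mrpl12, Mrpl11 and Mrpl36 have their highest mean with CoA, Mrpl24 has its lowest mean there, and Mrpl54 in Tc0 runs from 14.6 to 36.2 CPM.

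The remaining 50 members had log2 fold changes from -0.19 to 0.48 with CoA. Split by origin, 11 of 30 large-subunit members with bacterial counterparts were higher (median 0.37) and 9 of 21 without (0.29). In the small subunit these were 6 of 16 (0.38) and 2 of 10 (0.25), with Mrps18a and Mrps18b placed among those without. The 7 members below 0 were all of the large subunit. They included Mrpl24 (-0.19, adjusted p = 0.184), Mrpl58, a peptidyl-tRNA hydrolase that rescues stalled ribosomes (-0.14, adjusted p = 0.462), Mrpl9 (-0.07, adjusted p = 0.631) and Mrpl44, which carries a ribonuclease III-like fold (-0.04, adjusted p = 0.854). Mrps36, counted by its symbol but now known as a component of the 2-oxoglutarate dehydrogenase complex, was placed in neither subunit. It had 39.2, 39.8 and 41.3 CPM with CoA and 40.4, 37.03 and 31.1 in Tc0, with overlapping groups and a difference of 0.16 ± 0.12 (SE; adjusted p = 0.366).

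In Tc22 against Tc0, which compares the cell types without CoA, 0 members were higher and 0 lower by edgeR's quasi-likelihood test, where 2.48% of all genes were higher and 1.21% lower (3.68% in either direction). An unadjusted p under 0.05 gave 5 higher (Mrpl14, Mrpl28, Mrpl45, Mrpl54 and Mrps21) and 2 lower (Mrpl13 and Mrps22), where 11.7% and 9.48% of all genes passed it, and DESeq2 1 higher and 0 lower (4% and 2.02% of the genes it tested). The median log2 fold change was 0.01 (all genes -0.01). Groups were apart for 2 members above (Mrpl17 and Mrpl45) and 0 below (6.55% and 5.98% of all genes). Mrpl14, which lies where the subunits join, came nearest. It had 10.1, 12.4 and 16.2 CPM in Tc22 against 5.82, 5.83 and 14.3 in Tc0, higher in every mouse although the groups overlapped through the Tc0 library of mouse 728. Its log2 fold change was 0.67 ± 0.18 (SE; adjusted p = 0.0827) by edgeR, and DESeq2 called it (adjusted p = 0.0285). Mrpl14 overlaps Tmem63b on the opposite strand, whose reads could be shared if strand was not used in counting. Tmem63b was at 11.9, 6.13 and 8.09 CPM in Tc22 and at 8.97, 3.59 and 8.34 in Tc0. Mrpl54 had 22.8, 26.6 and 33.3 CPM in Tc22 and 14.6, 16.04 and 36.2 in Tc0, where mouse 728 alone went the other way, and the difference was 0.41 ± 0.17 (SE; adjusted p = 0.207). Mrps22 was 0.30 lower on the log2 scale in Tc22 with no call (adjusted p = 0.196), and Mrpl50 likewise (adjusted p = 0.289).

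These values turned on the Tc0 library of mouse 728. Without it, 5 members (Mrpl14, Mrpl28, Mrpl4, Mrpl54 and Mrps21) were called higher in Tc22, with log2 fold changes from 0.47 to 0.89. Without it 2 members were called lower, Mrpl13 (-0.34) and Mrps22 (-0.40). In the same fit 9.91% of all genes were higher and 7.1% lower, so both counts of members lay under the share of all genes. In that library Mrps11 was at 15.1 CPM against 5.63 and 5.97 in the other Tc0 mice, and Mrpl4, which lines the exit tunnel, at 35.7 against 15.8 and 13.0. Mrps11 was also highest in mouse 728 with CoA (16.4 against 8.62 and 10.6) and in Tc22 (10.9 against 8.94 and 10.6). The log2 difference of the Tc0 library of mouse 728 from the mean of the other Tc0 libraries followed the GC content of the principal transcript. Over the 78 members Spearman rho was 0.705 and Pearson r 0.727 (n = 78 genes that share the same libraries). Such a difference was computed for this library alone. It is measured from the Tc0 libraries of mice 715 and 725, which are also the denominators of the ratios to Tc0 of those mice. These relations thus share terms, and which of the Tc0 libraries carries the GC trend was not tested. When members were ordered by GC and split into 3 sets of 26, the median difference was -0.37 at 39.6% to 48.2% GC, 0.08 in the middle set and 0.38 at 52.7% to 60.6%. Tc22 against Tc0 log2 ratios followed GC with rho 0.631 in mouse 715 and 0.604 in mouse 725, and with -0.363 in mouse 728. The ratios of mice 715 and 725 had a rho of 0.860 with each other (n = 78), and of -0.138 and -0.233 with those of mouse 728. For CoA against Tc0, the rho with GC was 0.376, 0.352 and -0.218 in the 3 mice and 0.183 for the fitted change. The members higher with CoA were 9, 8 and 11 of 26 from the lowest to the highest GC set. The part of GC content in the calls was not tested.

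**Figure D4:**
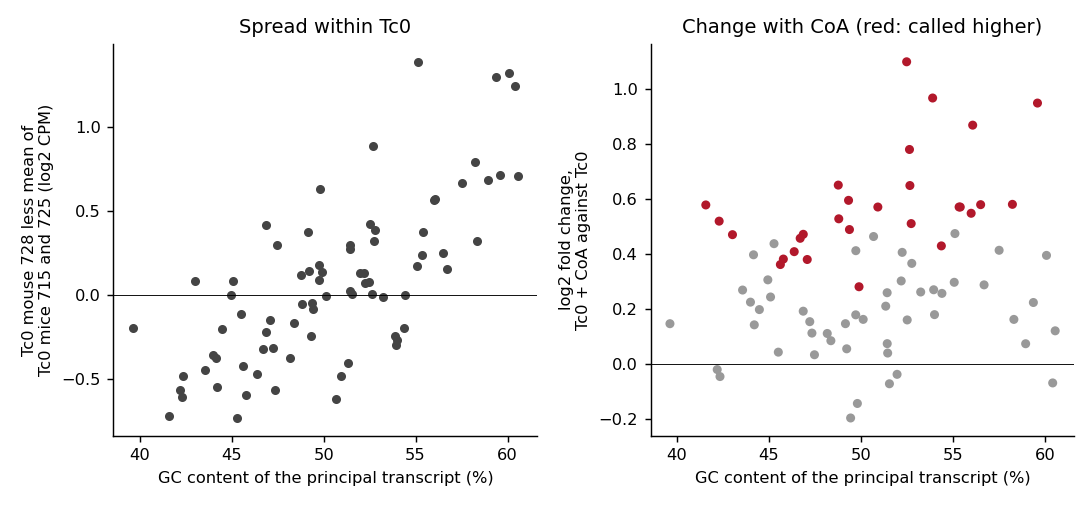
Each point is 1 of the 78 members, with the GC content of its principal transcript (percent) on the x axes. The left panel gives the log2 CPM of Tc0 mouse 728 less the mean of Tc0 mice 715 and 725, which climbs with GC (rho 0.705). The right panel gives the log2 fold change with CoA, where the 28 red (called) members spread over the GC range.

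The direct comparison of Tc22 with Tc0 given CoA showed the members lower in Tc22. By edgeR's quasi-likelihood test 33 of 78 were lower and 1 was higher, where 16% of all genes were lower and 16% higher (32% in either direction). An unadjusted p under 0.05 gave 38 lower and 3 higher (Mrpl14, Mrpl24 and Mrpl54), where 21.5% and 21.8% of all genes passed it, and DESeq2 32 and 2 (13.9% of the genes it tested in each direction). The median log2 fold change was -0.29 (all genes 0.01), and 65 of 78 lay below 0. All 3 Tc22 libraries lay below all 3 CoA libraries for 47 members and above for 1 (21.7% and 20.2% of all genes). The sum of members changed by -12.01%, -21.4% and -21.3% in mice 715, 725 and 728. This comparison and that of CoA with Tc0 use the same CoA libraries. The count of lower members was 17 without the mouse block. It was 13 and 11 without the CoA libraries of mice 725 and 728, and 20, 14 and 20 without the Tc22 libraries of mice 715, 725 and 728. Calls over all genes, in either direction, fell too. They were 2097 without the block, 2434 and 2456 without those CoA libraries, and 3251, 2185 and 4028 without those Tc22 libraries. With all libraries and the block they were 4913. Without the Tc0 library of mouse 728, which is in neither group but shares the fit, the count of lower members was 36 (19% of all genes). Mrps18a, Mrps18c and Mrps23 were gained. Members higher in Tc22 were then 3 (18.7% of all genes), Mrpl24 with Mrpl14 (adjusted p = 0.0378) and Mrpl54 (adjusted p = 0.0140).

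Mrpl20 was again the most changed, with every Tc22 library below every CoA library and a change of -1.08 ± 0.11 (SE; adjusted p = 0.000402). Mrpl1 was at 65.7, 63.4 and 57.4 CPM in Tc22, under every CoA library with a change of -0.84 ± 0.14 (SE; adjusted p = 0.00237). Mrpl36 was at 31.7, 27.4 and 23.7 CPM in Tc22 and likewise apart, at -0.82 ± 0.12 (SE; adjusted p = 0.00180). Mrps2, Mrps22, Mrps6, Mrps18b, Mrpl3, Mrpl16, Mrpl42 and Mrpl50 make 11 with these 3 that were called lower in all 16 settings. Mrpl50 went from 46.3, 60.6 and 43.4 CPM with CoA to 32.9, 26.3 and 25.7 in Tc22, a change of -0.82 ± 0.15 (SE; adjusted p = 0.00406). The 1 higher member was Mrpl24, whose bacterial counterpart starts assembly of the large subunit. It had 97.1, 89.2 and 88.7 CPM in Tc22, above the 71.4, 63.00 and 74.4 with CoA, while Tc0 overlapped both at 90.3, 72.6 and 76.5. Tc22 against CoA gave 0.40 ± 0.10 (SE; adjusted p = 0.0146). That call was made in 12 of 16 settings. It was lost when the mouse block was dropped and when the CoA library of mouse 725, or either Tc22 library of mice 715 and 725, was left out. For Mrps21, which was not called in this comparison, the levels were 30.9, 33.3 and 41.9 CPM with CoA, 18.4, 17.6 and 33.2 in Tc0 and 24.9, 30.9 and 33.9 in Tc22, which overlap between CoA and Tc22.

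Level and length were set beside the changes with CoA as a description. Across the 78 members, the log2 fold change with CoA had a Spearman rho of -0.12 with the level per kilobase and -0.06 with the transcript length. Split by length into 3 sets of 26, 7, 10 and 11 members were higher from the shortest to the longest. The log2 ratios of CoA to Tc0 correlated between mice over the members, with rho 0.774 for mice 715 and 725, 0.423 for 715 and 728 and 0.614 for 725 and 728. Genes that overlap a member can share its reads where strand was not used in counting. Such a gene of at least 1 CPM overlapped 27 members, 6 of them on the same strand. Of all 78 members 51 had no such neighbour, and of the 28 higher with CoA 19 had none. Mrpl46 and Mrps11 overlap each other head to head, and Mrpl46 rose by 0.51 with CoA (adjusted p = 0.0132) while Mrps11 was 0.48 higher with a wider spread (SE 0.23, adjusted p = 0.160). With Tc0 mouse 728 left out, Mrps11 was called (adjusted p = 0.0246).

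Other genes of the pathway were read in the same fit. The counts of each list stand against the shares of all genes given above (12.5% higher and 12% lower with CoA than in Tc0). Of 6 mitoribosomal proteins under other symbols, 1 was higher with CoA and 0 were lower. That was Ptcd3, a small-subunit protein, at 186.3, 226.5 and 170.1 CPM with CoA and 160.3, 135.2 and 88.2 in Tc0, which did not overlap, and it rose by 0.64 ± 0.14 (SE; adjusted p = 0.0117). Dap3, a GTP-binding small-subunit protein, was 0.26 lower without passing the test (adjusted p = 0.0752), and it was higher in Tc22 than with CoA, by 0.44 ± 0.09 (SE; adjusted p = 0.00767). Of 27 assembly and ribosomal RNA modification factors, 5 were higher with CoA and 1 was lower (18.5% and 3.70%, median 0.29), and 9 and 1 without the Tc0 library of mouse 728. Fastkd2, an RNA-binding factor for the large ribosomal RNA, was at 59.1, 75.8 and 49.1 CPM with CoA and at 42.9, 36.8 and 23.3 in Tc0, without overlap, and rose by 0.86 ± 0.14 (SE; adjusted p = 0.00467). Ybey, Mrm3, Trub2 and Noa1 rose by 0.79, 0.76, 0.57 and 0.46 (Noa1 lost its call without that library, adjusted p = 0.0625), and the methyltransferase Trmt2b was lower (-0.35, adjusted p = 0.0378). Of 17 translation factors, 6 were higher with CoA and 0 were lower (35.3% higher, median 0.23). Tufm, the elongation factor that brings transfer RNA, reached 84.6, 107.5 and 124.3 CPM with CoA and 51.5, 49.1 and 79.9 in Tc0. Its groups were apart and it rose by 0.82 ± 0.14 (SE; adjusted p = 0.00456). The messenger-binding pair Lrpprc and Slirp rose by 0.62 and 0.43, the elongation and recycling factors Gfm1 and Gfm2 by 0.61 and 0.50, and the deformylase Pdf by 1.06. With Tc0 mouse 728 left out, Slirp lost its call (adjusted p = 0.0786) and Taco1 gained one (adjusted p = 0.0421).

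Genes of mitochondrial DNA transcription and upkeep gave 1 higher of 15 and 0 lower (6.67% higher, median -0.03), and 2 higher without the Tc0 library of mouse 728, with Polrmt gained. The higher one was Elac2, which trims transfer RNA and rose by 0.93 ± 0.16 (SE; adjusted p = 0.00467). Tfam, which packages mitochondrial DNA and starts its transcription, was at 99.2, 102.9 and 91.9 CPM with CoA and at 120.4, 114.4 and 83.9 in Tc0, with overlap and no call (adjusted p = 0.523). Among 11 transcriptional regulators of nuclear-encoded mitochondrial genes, 1 was higher and 1 lower (9.09% each), and 2 and 3 without that library, where Esrra was also higher and Gabpa and Yy1 also lower. Pprc1, a coactivator of NRF1, was at 35.1, 47.8 and 39.8 CPM with CoA against 25.2, 20.1 and 28.00 in Tc0, without overlap, and rose by 0.75 ± 0.20 (SE; adjusted p = 0.0230). Sp1 was lower (-0.36, adjusted p = 0.0259). Nrf1 itself was not called, at -0.01 ± 0.11 (SE; adjusted p = 0.960), nor were Gabpa at -0.26 (adjusted p = 0.100) and Myc at 0.35 (adjusted p = 0.130). Of the 13 mitochondrially encoded messengers, 7 were higher with CoA and 0 were lower (53.8% higher, median 0.62), among them mt-Atp8 (1.03), mt-Cytb (0.96) and mt-Nd3, which rose by 1.23 ± 0.18 (SE; adjusted p = 0.00277). The count was 5 without that library, as mt-Atp6 and mt-Nd4 lost their calls. For CoA against Tc0, DESeq2 called 0 lower among the other mitoribosomal proteins, the translation factors, the DNA upkeep genes and the mitochondrial messengers, and an unadjusted p under 0.05 gave 1, 0, 1 and 0. Both mitochondrial ribosomal RNAs were without a call, at -0.07 each, in libraries from which ribosomal RNA had been depleted. Transcripts of the mitochondrial genome took 2.66% to 3.997% of counts with CoA, 2.003% to 3.97% in Tc0 and 2.01% to 3.33% in Tc22.

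**Figure D5:**
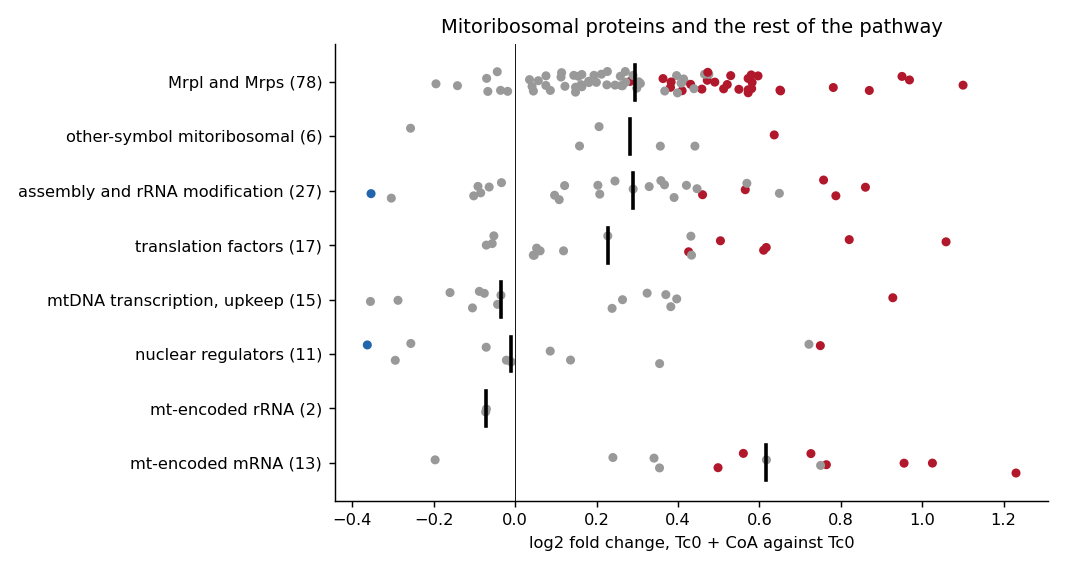
Log2 fold change of Tc0 with CoA against Tc0 (x axis) for the members and 7 lists of other genes of the pathway (numbers tested in parentheses); points are genes, red and blue mark adjusted p under 0.05, bars the medians. The median lies at 0.29 for the members and at 0.62 for mitochondrially encoded messengers, and near 0 for mitochondrial DNA upkeep and nuclear regulators.

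These 7 lists had 6, 27, 17, 15, 11, 2 and 13 genes tested. In Tc22 against Tc0 they gave 0 higher and 1 lower gene in all by edgeR, the mitochondrial messenger mt-Nd4l (2.48% and 1.21% of all genes). DESeq2 gave the same counts (4% and 2.02% of the genes it tested). An unadjusted p under 0.05 gave 3 higher and 10 lower, where 11.7% and 9.48% of all genes passed it. Without the Tc0 library of mouse 728, 7 of the 13 mitochondrial messengers were lower and 0 higher (7.1% and 9.91% of all genes). Of the translation factors 1 was then higher (Tufm) and 2 lower (Slirp and Guf1). In the other lists Gadd45gip1, a mitoribosomal protein under another symbol, was higher. The assembly and modification gene Mterf3 and the regulator Gabpa were lower. In Tc22 against Tc0 with CoA, 12 of the 13 mitochondrial messengers were lower and 0 higher (median -0.90), where 16% of all genes were lower and 16% higher. Of the translation factors 7 of 17 were lower and 0 higher, of the assembly and modification factors 6 of 27 were lower (22.2%) and 2 higher (7.41%), and of the other mitoribosomal proteins 3 of 6 were lower and 1 higher. Genes of mitochondrial DNA transcription and upkeep gave 4 lower and 2 higher of 15 (26.7% and 13.3%), and the regulators 2 lower and 0 higher of 11 (18.2% lower), Pprc1 (-0.78, adjusted p = 0.0151) and Max (-0.37, adjusted p = 0.0255).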

How the data were processed

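Per the labels' protocols, 200 ng of RNA per sample was depleted of ribosomal RNA and made into stranded total RNA libraries, sequenced as paired ends of 100 cycles. The authors deposited whole-number gene counts for the 9 libraries, as 1 table and as 9 single files identical to it. STAR 2.5.2 and RSEM 1.3.0 appear in the submitters' processing notes, with GRCm38 (mm10) as the build. The strand setting, annotation release and any rounding of RSEM's estimates were not given in the sources used here.

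Groups and mice were read from sample titles. TMM scaling and the filterByExpr filter, which left 15348 genes, preceded a fit with the quasi-likelihood test of edgeR (version 4.0.16, R 4.3.3). The model held terms for group and mouse and used the 9 libraries together (4 residual degrees of freedom, biological coefficient of variation 0.158). The Benjamini-Hochberg adjustment covered every gene tested (threshold 0.05). Standard errors were taken as the size of the log2 fold change over the root of F. P-values rest on differences within 3 mice. Pairing comes from the design text, which matches samples by mouse. As a check, same-mouse deviations from group means correlated from 0.0699 to 0.617 (mean 0.360, 9 pairs). Replicates differed beyond counting noise in all 9 pairs. CPM uses TMM-scaled library sizes. Lengths and GC content are those of the principal transcript in GENCODE M21 (APPRIS tag, then longest coding sequence, then longest transcript). GENCODE M21 was matched for 53650 of 53679 IDs, and the other 29 held 0.00477% of counts.

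Members and gene lists were chosen with earlier results of these data known. Named members were those called (at most 12 per comparison and direction, else the 8 with smallest p), the 3 largest changes each way at 5 CPM or more, the 5 highest and lowest levels per kilobase, and a set list of structural landmarks; others in the text were added to complete counts, or chosen after their values were seen (Mrpl45, Mrpl46, Mrps11, Mrpl28, Mrpl16 and those listed by name alone). Of each other list, up to 3 genes with the smallest p per comparison were taken, with others likewise added. The 15 alternatives were another tool (DESeq2 1.42.0), other scalings and filters, no mouse block, the compared groups alone and each library left out. Scripts were tested on simulated data without mouse effects, whose true changes were larger in size than the members' median. That test does not cover changes of the members' median size.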

Additional observations from a re-analysis of the deposited data

How the results depend on the processing

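The members' median log2 fold change over the 15 alternatives lay at 0.24 to 0.42 for CoA against Tc0, and -0.35 to -0.26 for Tc22 against Tc0 with CoA. In Tc22 against Tc0, near 0 throughout, it turned to -0.04 without the Tc0 library of mouse 725. Of the named members' recomputed adjusted p-values, 1554 kept their side of the threshold, 84 lost a call and 27 gained one. Counts moved more. Without the mouse as a replicate block, members higher with CoA were 11, members of Tc22 against CoA 0 higher and 17 lower, and all genes called 1462 (CoA against Tc0), 120 (Tc22 against Tc0) and 2097 (Tc22 against CoA), beside 3763, 565 and 4913 with it. Leaving out each library in turn gave 4 to 36 members higher with CoA (all genes 1160 to 4356), 0 to 5 higher and 0 to 2 lower in Tc22 against Tc0 (all genes 201 to 2669), and 0 to 3 higher and 11 to 36 lower in Tc22 against CoA (all genes 2185 to 5913). These fits have fewer samples. Tc22 against Tc0 gave 1 higher member both by DESeq2 (937 genes in all) and with no filter on low counts (1275 genes). Tc22 against CoA gave 2 higher members by DESeq2, 3 with the compared groups alone and 2 without the filter. The cause of these moves was not tested. With 3 mice and 4 residual degrees of freedom, changes of the size of the members' median were called for only some members. Every member had 125 counts or more in every library.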
